A study of Mus musculus with 2 samples.

Results

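The genes described here build the coats, membrane fusion proteins and tethers that move cargo between the endoplasmic reticulum (ER), the Golgi and later compartments. They were chosen by symbol from the protein-coding genes of the RefSeq annotation of mouse build mm10 (GRCm38.p6). The pattern took symbols that begin with Sec, Vps, Stx, Snap, Vamp or Arf and a number, or with Trappc or Gosr, together with the COPI coat genes, Use1 and Bet1. It matched 125 genes. Vamp7 could not be placed on a chromosome by its coordinates, which left 124 of 21779 genes. The set was proposed with summit calls of these libraries already known, among them those of Gosr1, Copa and Use1, so the calls at these genes are given as a description and carry no test. The pattern also reached past its name: 56 of the 124 genes act after the Golgi or in endosomes and lysosomes, and 10 were placed in none of the roles used here.

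The H3K27ac histone mark, an acetyl group on lysine 27 that is found at active promoters and enhancers, was profiled by CUT&Tag in colonic macrophages of male C57BL/6 mice aged 11.1 weeks. CUT&Tag cuts and tags the DNA around a mark with a transposase that is tethered through an antibody. Cells sorted as Siglec-F negative, Ly6C low and CD64 positive came from 4 mice with Lyz2-Cre alone (WT) and 4 mice with a floxed Tle4 gene and Lyz2-Cre (Tle4cKO), and were pooled by genotype into 1 library each. Both groups carry Lyz2-Cre, which acts in macrophages and other myeloid cells such as neutrophils. The protein made from Tle4 belongs to the Groucho family of corepressors, which DNA-binding factors recruit to the genes they silence.

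Proteins enter the secretory pathway through the translocon of the ER. COPII-coated vesicles carry them forward from ER exit sites, COPI-coated vesicles return escaped proteins and recycle Golgi enzymes, and small GTPases of the Arf and Sar families recruit these coats. Tethers such as the TRAPP complexes catch a vesicle at its target, and SNARE proteins on both membranes then zip together and fuse them. Macrophages depend on the same machinery to secrete cytokines and to feed phagosomes and lysosomes.

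Each library was deposited as a list of summits, single positions at which a peak is highest, each with the authors' score. The WT list held 10474 summits and the Tle4cKO list 2350 on the standard chromosomes. Which significance value the score stands for (−log10 of p or of q) is not stated. Scores grow with read depth, which is unknown, so they were ranked only within a list, and ranks in lists of unequal length show no change. With 1 library per genotype there was no test between genotypes, and a peak that was not called can still hold signal. In pooled cells, fewer cells with the mark and less mark per cell cannot be told apart. Neither list held a summit within 10 kb of Tle4, so the lists do not check the genotype. Of 10 macrophage markers, 4 (Cd14, Cd68, Cx3cr1 and Fcgr1) had a WT gene-end summit and 8 a WT summit within 10 kb. None had a Tle4cKO summit in either window. Tle4cKO calls were scarce in general: 6.22% of the 21779 genes were called at an end and 11.7% within 10 kb. For WT these rates were 22.7% and 39.4%. The absence of Tle4cKO calls at 10 markers is therefore not read as a loss of the mark. None of 7 epithelial, 6 fibroblast and muscle, 4 neutrophil, 4 eosinophil or 5 B and plasma cell markers had a gene-end summit. Cd4 (1 of 5 T cell markers), Kdr (1 of 4 endothelial markers), and Itgax and Xcr1 (2 of 5 dendritic cell markers) had one in WT, and Xcr1 also had one in Tle4cKO. Within 10 kb, WT summits lay at 5 of 5 dendritic cell, 3 of 4 endothelial, 2 of 5 B and plasma cell and 1 of 5 T cell markers, and at Cdh1 (1 of 7 epithelial), Ccr3 (1 of 4 eosinophil) and Csf3r (1 of 4 neutrophil). Tle4cKO summits in that window lay at Xcr1, at Pecam1 (endothelial) and at Jchain (plasma cell). The part of other cells in the results below was not tested.

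Most of the trafficking genes carried an acetylated gene end in WT, and a minority of these were also called in Tle4cKO. A gene end here means either outer end of the annotated gene, and a summit within 1 kb of it was counted. In WT 72 of 124 genes (58.1%, exact Clopper-Pearson 95% interval 48.9 to 66.9%) had such a summit, where 22.7% of all protein-coding genes did. In Tle4cKO 22 genes (17.7%, 11.5 to 25.6%) had one, against a background of 6.22%. All 22 were among the 72, so that 50 genes were called in WT alone (background 17.1%), 22 in both (5.62%) and 52 in neither (76.7%). No gene was called in Tle4cKO alone (0.597%). Of the genes with a WT summit, 30.6% (20.2 to 42.5%) also had a Tle4cKO summit, and over all protein-coding genes 24.7% did. The 72 include Copa, Gosr1 and Use1, whose absence from the Tle4cKO calls was known when the set was proposed. Their choice lowers the share, and nothing is read from the comparison. The intervals cover counting error only. Restricting both lists to scores of at least 5 left 50 genes in WT and 6 in Tle4cKO, with 12% of the WT genes called in both. Cutting the WT list to its 2350 highest scores left 31 genes in WT, 13 of them (41.9%) called in both. Shares over all genes under these settings are not given here. Whether the changes are particular to the trafficking genes therefore cannot be told.

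**Figure D1:**
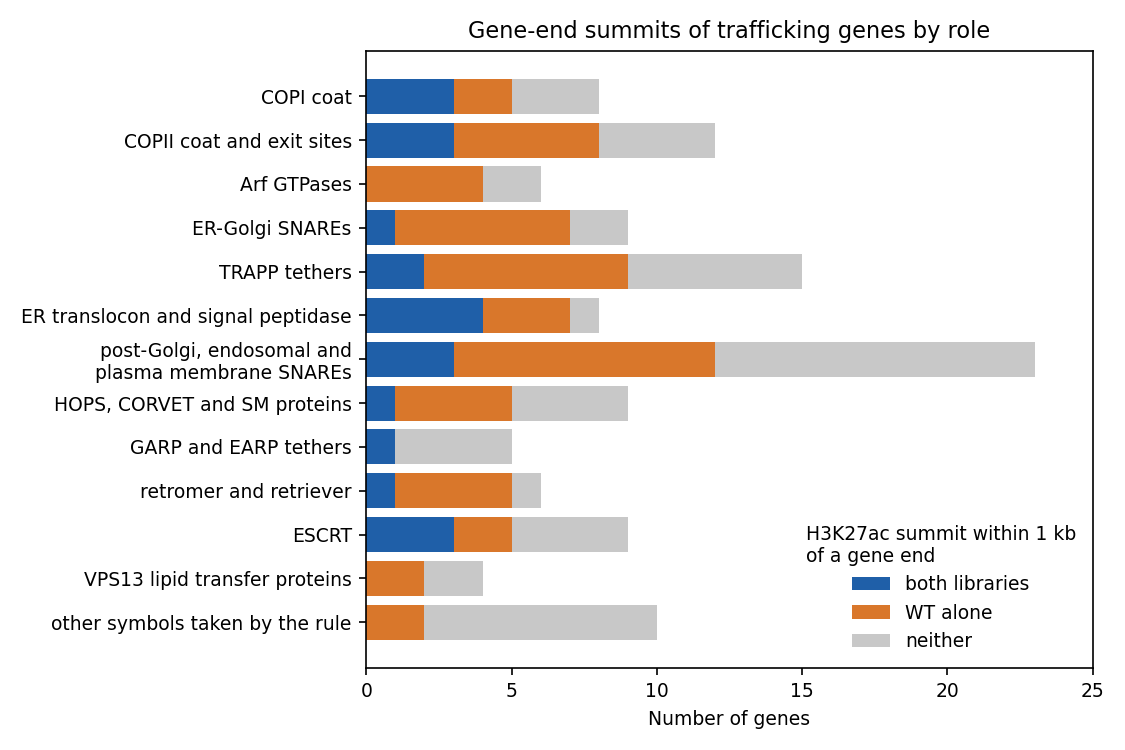
Number of trafficking genes in each role (horizontal axis, genes) with an H3K27ac summit within 1 kb of a gene end in both libraries (blue), in WT alone (orange) or in neither (grey), with 1 library per genotype. The 23 post-Golgi SNAREs form the longest bar. In ER-Golgi SNAREs 1 of 7 marked genes was called in both, and the 7 include Gosr1 and Use1, whose calls were known when the set was proposed.

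The COPI coat, the heptamer that surrounds vesicles returning from the Golgi to the ER, was represented by the 8 genes on the list, which leaves out the delta subunit. Of these, 5 were marked in WT, and 3 of the 5 had a gene-end summit in Tle4cKO as well. Copa, the alpha subunit (chromosome 1, 172082529 to 172122332), had a WT score of 15.9 at position 172082554, 25 bp into the gene, and no Tle4cKO summit. The nearest Tle4cKO summit lay 65698 bp away. The WT summit of Copa is also at the end of Ncstn, a subunit of gamma-secretase, so the mark cannot be assigned to one of them. Copz1, a zeta subunit, had a WT score of 7.64 and no Tle4cKO summit.

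The beta subunits were called in both libraries. Copb1 (chromosome 7, 114215559 to 114254680) had a WT score of 5.19, rank 3905 of 10474, and a Tle4cKO score of 8.998, rank 189 of 2350, at positions 13 bp apart. This was the highest Tle4cKO gene-end score of the 124 genes. Copb2, the beta-prime subunit, had scores of 11.04 in WT and 3.67 in Tle4cKO at positions 130 bp apart. Copg1, a gamma subunit, counted as called in both, but its WT summit (3.81) lay 70 bp into the gene, whereas the Tle4cKO summit (3.29) lay 26362 bp away, past the other end of the gene and at an end of Hmces. Cope and Copz2 had no WT or Tle4cKO summit within 10 kb, and Copg2 had a WT summit of 2.61 inside the gene.

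The COPI promoters at the extremes are shown as RefSeq gives them on GRCm38.p6, from 250 bases before the transcription start to 50 from it, 5′ to 3′ on the gene's strand. Copa was called in WT alone with a high score, and Copb1 in both libraries with the highest Tle4cKO score. Capitals mark a match to one of the 9 motifs listed further on, here the reverse complement of TGACGTGG in Copb1. Copa held no exact match to any of them.
Copa, chr1:172082279-172082578, plus strand: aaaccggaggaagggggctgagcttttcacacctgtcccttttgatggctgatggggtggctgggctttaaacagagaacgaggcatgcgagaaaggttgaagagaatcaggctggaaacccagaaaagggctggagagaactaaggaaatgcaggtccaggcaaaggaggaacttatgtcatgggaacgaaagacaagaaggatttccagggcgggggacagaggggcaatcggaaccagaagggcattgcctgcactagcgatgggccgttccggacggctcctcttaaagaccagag
Copb1, chr7:114254631-114254930, minus strand: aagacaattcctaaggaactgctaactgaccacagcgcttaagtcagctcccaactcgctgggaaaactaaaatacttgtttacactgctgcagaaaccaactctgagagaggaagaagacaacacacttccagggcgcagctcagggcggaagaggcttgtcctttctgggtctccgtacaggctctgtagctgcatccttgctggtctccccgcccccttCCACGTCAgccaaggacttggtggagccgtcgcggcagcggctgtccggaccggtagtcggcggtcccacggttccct

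The COPII coat, which buds cargo from ER exit sites, was marked at 8 of 12 genes in WT and at 3 of these in Tle4cKO. Sec23b, an inner coat subunit, had scores of 10.9 in WT and 5.80 in Tle4cKO. Sec13, an outer coat subunit that also serves the nuclear pore, had 2.77 (rank 9232) in WT and 3.51 (rank 1474) in Tle4cKO. Sec16a, the scaffold of exit sites, had a gene-end score of 3.70 in WT and 2.08 in Tle4cKO, and Sec16a also held a higher WT summit of 5.37 near its annotated start.

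The cargo-binding Sec24 subunits differed from one another. Sec24c had a WT score of 11.1, and the nearest Tle4cKO summit lay 59935 bp from its WT summit. Sec24a had a WT gene-end score of 7.11 and no Tle4cKO summit. Sec24b had a single WT summit of 2.58 inside the gene, and Sec24d had none within 10 kb. Sec23a (7.17), Sec23ip (3.63) and the outer coat gene Sec31a (3.05) were called in WT alone. Sec31b had no gene-end summit, and the WT and Tle4cKO summits within 10 kb of it (6.66 and 2.07) lay at an end of Ndufb8, a respiratory chain gene. No summit lay within 10 kb of Sec16b.

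The Arf GTPases, which recruit COPI and other coats, were marked at 4 of 6 genes in WT. Their median WT score was 4.00, and it was 5.19 over all marked protein-coding genes. No Tle4cKO summit lay within 10 kb of any of the 6 genes (background 11.7%). Arf2 scored 5.76, Arf6 4.99, Arf1 3.00 and Arf3 2.36 in WT. The Arf3 value was the lowest WT gene-end score of the trafficking genes. Arf5 had a WT summit of 3.56 that lay 1721 bp from it and at an end of its neighbour Gcc1, a golgin gene, and Arf4 had none.

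The SNAREs of the early pathway held the highest median WT score of the roles. Of their 9 genes, 7 had a WT gene-end summit, with a median score of 10.9. It was 5.88 for all marked trafficking genes and 5.19 over all marked protein-coding genes. In Tle4cKO 1 of the 7 was called at its ends. The 7 include Gosr1 and Use1, whose calls were known when the set was proposed, so nothing is read from this median or this count. Within 10 kb of the gene 8 of the 9 had a WT summit, and 4 of these (Gosr2, Sec22c, Stx18 and Stx5a) also had a Tle4cKO one. This was 50%, where 27.6% of all protein-coding genes with a WT summit there also had a Tle4cKO one. The 8 genes again include Gosr1 and Use1, so nothing is read from this share. The 4 genes had WT and Tle4cKO summits within 500 bp of each other, as had 2124 of the 2366 protein-coding genes called in both. For Stx5a the Tle4cKO summit lay at an end of its neighbour Wdr74. Gosr1, a Golgi SNARE (chromosome 11, 76726602 to 76763578), had the highest WT score of the 124 genes, 20.2, rank 96 of 10474, at position 76763354. The nearest Tle4cKO summit lay 1038999 bp away. Use1, an ER SNARE that receives returning COPI vesicles (chromosome 8, 71366848 to 71369732), scored 15.2 in WT, rank 170, at position 71367399, and the nearest Tle4cKO summit lay 533947 bp away. Gosr2, which like Gosr1 pairs with the Golgi syntaxin Stx5a (chromosome 11, 103676849 to 103697723), was the exception, with scores of 13.7 in WT, rank 220, and 7.78 in Tle4cKO, rank 271, at positions 43 bp apart.

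Of the other early SNAREs, Stx5a, Sec22a, Sec22c and Bet1 were called at their ends in WT alone, and Sec22b and Stx18 in neither library. Stx5a, the syntaxin of the Golgi, had a WT score of 10.9 at a summit that also lay at ends of Wdr74 and 1700092M07Rik. A Tle4cKO summit of 2.98 lay 5552 bp from this summit, within 10 kb of Stx5a but at an end of Wdr74 and not at those of Stx5a. Sec22a (10.9) and Sec22c (3.21), relatives of the ER SNARE Sec22b, and Bet1 (9.65), a SNARE of ER-derived vesicles, had WT gene-end summits alone. Sec22c also had a Tle4cKO summit of 3.03 inside the gene, 358 bp from another WT summit. Sec22b itself had no WT or Tle4cKO summit within 10 kb. Stx18, the syntaxin of the ER, had summits of 3.57 in WT and 3.47 in Tle4cKO, 74 bp apart and outside the gene-end window because its annotated start lies inside the outer bounds of the gene. Annotated starts were also counted beside gene ends, an alternative added after the data had been seen. Stx18 and the ESCRT gene Vps25 then moved to the class called in both. Vps45, with a WT summit of 5.37 at 404 bp from a start, moved to the class called in WT alone. These moves gave 75 genes in WT (background 25%), 24 in Tle4cKO (6.86%) and 24 in both (6.25%).

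The promoters of Gosr1, Use1 and Gosr2 are given in the same form to set the SNAREs called in WT alone beside the one called in both. Capitals mark the YY1-type motif in Gosr1, which was added after the sequences had been seen, and, in Gosr2, TGACGTCA and a pair of CCGGAAG matches. Use1 held none of the motifs. For Use1 the annotated start nearest to its summit is used.
Gosr1, chr11:76763529-76763828, minus strand: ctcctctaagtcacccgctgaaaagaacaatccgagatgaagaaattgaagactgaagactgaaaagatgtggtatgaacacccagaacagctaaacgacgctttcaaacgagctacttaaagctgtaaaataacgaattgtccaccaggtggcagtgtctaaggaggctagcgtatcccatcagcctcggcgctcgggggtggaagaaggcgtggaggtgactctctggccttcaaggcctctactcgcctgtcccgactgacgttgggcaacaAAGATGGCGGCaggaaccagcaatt
Use1, chr8:71366967-71367266, plus strand: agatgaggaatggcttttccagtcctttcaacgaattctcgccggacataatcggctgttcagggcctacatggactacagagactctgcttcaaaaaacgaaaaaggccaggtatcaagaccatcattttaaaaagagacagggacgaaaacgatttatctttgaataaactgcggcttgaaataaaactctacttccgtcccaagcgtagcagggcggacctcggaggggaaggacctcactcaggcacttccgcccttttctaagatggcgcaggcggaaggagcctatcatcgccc
Gosr2, chr11:103697674-103697973, minus strand: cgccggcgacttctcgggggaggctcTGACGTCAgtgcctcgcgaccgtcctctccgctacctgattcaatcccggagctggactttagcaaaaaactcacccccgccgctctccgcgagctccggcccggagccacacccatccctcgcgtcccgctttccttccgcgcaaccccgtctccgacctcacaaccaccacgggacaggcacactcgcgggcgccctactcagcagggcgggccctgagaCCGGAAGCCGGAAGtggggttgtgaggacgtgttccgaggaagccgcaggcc

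TRAPP complexes tether vesicles and activate Rab GTPases at the Golgi. Of 15 TRAPP genes, 9 had a WT gene-end summit and 2 also had one in Tle4cKO. Trappc6b (chromosome 12, 59043092 to 59061472) had scores of 10.9 in WT and 7.74 in Tle4cKO, 45 bp apart. Trappc4, a core subunit, had 4.70 and 4.51, 184 bp apart, in the interval it shares with the ribosomal protein gene Rps25. Trappc11 scored 10.6 in WT alone and shared its summit with Rwdd4a. Trappc8 (6.996), Trappc13 (5.55), Trappc2 (5.15), Trappc9 (5.07) and Trappc6a (4.64) were also called in WT alone. The WT summit of Trappc10 (3.12) lay at its far end, 59638 bp from the start, and at an end of Pwp2. The Trappc3 summit within 10 kb (9.55) lay at an end of Map7d1, and Trappc1, Trappc2l, Trappc3l and Trappc5 had none. The Trappc6b promoter holds 2 matches to CCGGAAG, a motif of ETS factors, in capitals.
Trappc6b, chr12:59061423-59061722, minus strand: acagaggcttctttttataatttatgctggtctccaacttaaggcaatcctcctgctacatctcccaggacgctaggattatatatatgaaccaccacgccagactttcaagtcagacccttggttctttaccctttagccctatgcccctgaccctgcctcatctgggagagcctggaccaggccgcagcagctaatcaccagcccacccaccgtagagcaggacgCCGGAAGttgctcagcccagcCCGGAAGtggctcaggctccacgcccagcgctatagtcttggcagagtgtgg

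**Figure D2:**
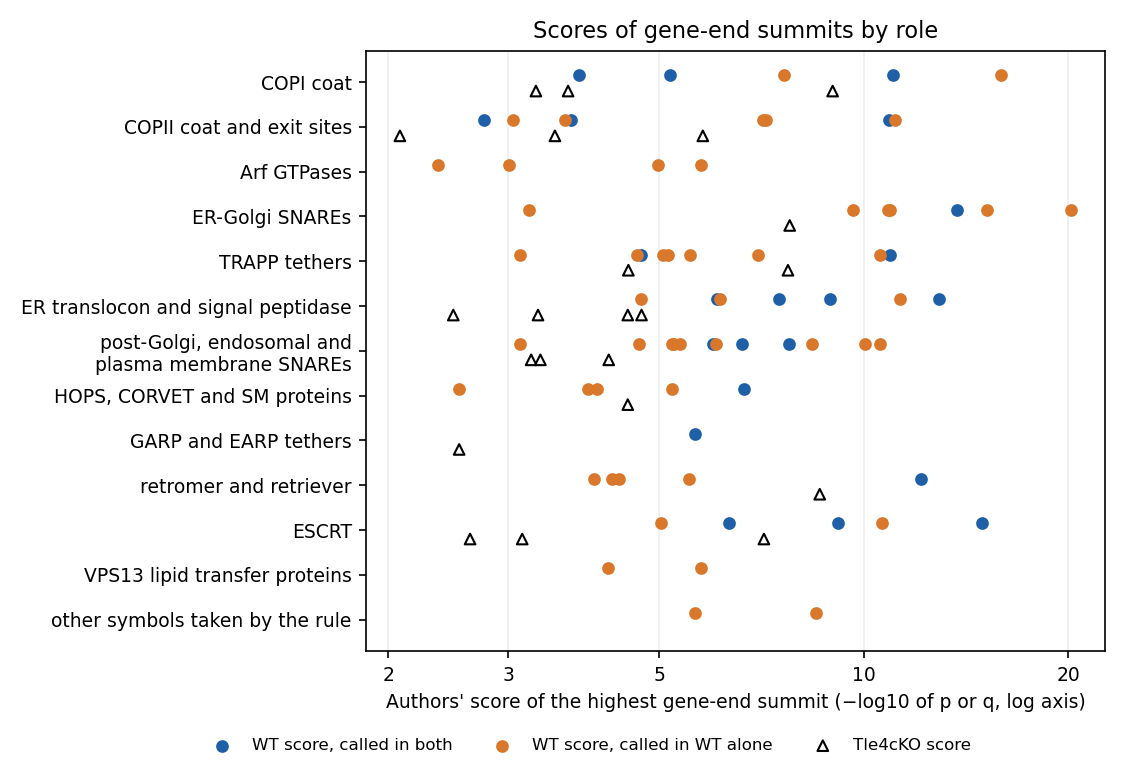
Authors' score of the highest gene-end summit of each trafficking gene (horizontal log axis, −log10 of a p- or q-value) by role, with 1 library per genotype. Filled circles are WT scores of genes called in both libraries (blue) or in WT alone (orange), and open triangles are Tle4cKO scores. The ER-Golgi SNAREs reach 20.2 in WT, and the Tle4cKO scores lie between 2.08 and 8.998.

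The ER translocon, through which new proteins enter the ER, and the signal peptidase that trims them were marked at 7 of 8 genes in WT, and 4 of the 7 were called in both. Sec61b, a channel subunit, had scores of 12.9 and 4.71, and its summits also lay at an end of Alg2, a glycosylation enzyme. Sec61g, the small channel subunit, had 7.52 and 2.49. Sec62, an accessory subunit, had 6.09 and 4.50. Sec11a, a catalytic subunit of the signal peptidase, had 8.93 and 3.32. Its paralogue Sec11c scored 11.3 in WT, and the nearest Tle4cKO summit lay 1690551 bp from that summit. Sec61a2 (6.14) and Sec63 (4.70) were called in WT alone, and Sec61a1, the other channel-forming subunit, had no summit within 10 kb.

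SNAREs that act after the Golgi were marked at 12 of 23 genes in WT and at 3 of them in Tle4cKO. Stx12, an endosomal syntaxin, had scores of 6.62 and 4.22. Stx16, which acts between endosomes and the trans-Golgi network, had 6.00 and 3.24. Stx17, which fuses autophagosomes with lysosomes, had 7.77 and 3.35. Stx4a (10.6) and Vamp2 (10.0), known for fusion at the plasma membrane, Vamp8 (8.38), a SNARE of late endosomes and secretory granules, and Vamp4 (6.07) were called in WT alone. Vamp3 (5.37), Stx8 (5.27), Vamp5 (5.22), Stx11 (4.67) and Vamp1 (3.12) were likewise called in WT alone. The neuronal SNAREs Snap25 and Stx1a had neither a WT nor a Tle4cKO summit within 10 kb. Nor had the broadly used Snap29, Snap47, Stx6 and Stx7, or Stx19.

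The endosomal complexes differed in how many of their genes were marked. Retromer, which returns receptors from endosomes to the Golgi, and the related retriever had WT gene-end summits at 5 of 6 genes. Vps35, the retromer backbone, was the one also called in Tle4cKO, with scores of 12.1 (rank 329) and 8.61 (rank 211), 37 bp apart at an end shared with Orc6. Vps26b (5.53), Vps29 (4.37), Vps26c (4.27) and Vps26a (4.01) were called in WT alone. The GARP and EARP tethers, which receive endosomal vesicles, were marked at 1 of 5 genes, Vps50, with scores of 5.65 and 2.54. Vps51, Vps52, Vps53 and Vps54 had no summit within 10 kb.

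The ESCRT genes, whose products bud vesicles into endosomes, were marked at 5 of 9 genes in WT and at 3 of these in Tle4cKO. Vps37a had scores of 14.9 (rank 177) and 3.15 (rank 1725). Vps37c had 9.15 and 7.13, and Vps36 had 6.33 and 2.64. The ATPase genes Vps4b (10.7) and Vps4a (5.04), whose products take the ESCRT filament apart, were called in WT alone. The HOPS and CORVET tethers of late and early endosomes and their SM proteins were marked at 5 of 9 genes. Vps16, a shared core subunit, had scores of 6.65 and 4.50, 13 bp apart, at an end shared with Pced1a. Vps41 (5.22), Vps11 (4.05), Vps8 (3.93) and Vps33b (2.54) were called in WT alone. Of the 4 VPS13 lipid transfer genes, Vps13d (5.76) and Vps13b (4.21) had a WT gene-end summit and none a Tle4cKO one.

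The 10 genes that the pattern took and that were placed in none of the roles above were marked at 2 genes in WT (20%, against 22.7% of all protein-coding genes). Sec14l1 (8.50) and Vps72 (5.64), a subunit of chromatin remodellers that exchange histone H2A.Z, were called in WT alone and the other 8 in neither. Without these 10 genes, 70 of 114 (61.4%) had a WT gene-end summit and 22 a Tle4cKO one. Early secretory genes (COPI, COPII, Arf, ER-Golgi SNAREs and TRAPP) were called in both at 9 of 33 WT-marked genes (27.3%, 13.3 to 45.5%). The post-Golgi, endosomal and lysosomal genes were at 9 of 30 (30.0%, 14.7 to 49.4%), so that both intervals held the other share. The early genes include Copa, Gosr1 and Use1, whose absence from the Tle4cKO calls was known when the set was proposed. Their share is lowered by this choice, and nothing is read from the comparison.

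The share of WT-marked genes also called in Tle4cKO was then set beside that of all genes of like WT score. In both sets it was higher at WT scores of 10 to 15 than at 3 to 5. At WT scores of 3 to 5, 3 of 19 trafficking genes (15.8%, 3.38 to 39.6%) were also called in Tle4cKO, against 12.8% of 1795 genes in all. At scores of 10 to 15, 7 of 15 (46.7%, 21.3 to 73.4%) were, against 62.5% of 365. At 15 and above the trafficking genes were Copa, Gosr1 and Use1, whose absence from the Tle4cKO calls was known when the set was proposed, so nothing is read from this bin. They are 3 of the 9 protein-coding genes with such a score and no Tle4cKO gene-end summit, and 72 of 81 genes in all were called in both. The 22 genes called in both had a median WT score of 7.09 and the 50 called in WT alone 5.45, and over all genes the medians were 7.07 and 4.75.

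**Figure D3:**
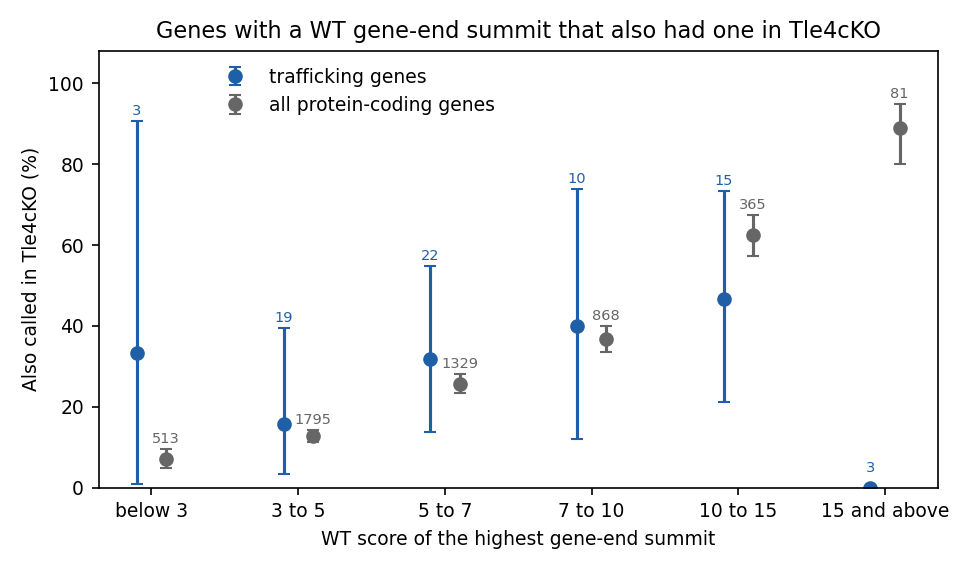
Percentage of genes with a WT gene-end summit that also had a Tle4cKO one (vertical axis), by the WT score of the highest gene-end summit, for the trafficking genes (blue) and all protein-coding genes (grey). Bars are exact 95% intervals for counting error, and numbers are genes. The 3 trafficking genes at 15 and above prompted the choice of the set and carry no interval. At 10 to 15, 7 of 15 trafficking genes were called in both.

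For the 50 genes called in WT alone, the nearest Tle4cKO summit lay at a median distance of 248.9 kb from the WT summit. It lay over 100 kb away for 35 of them (70%) and within 5 kb for 1, Sec22c (3458 bp). Over all 3726 genes called in WT alone the median was 188.8 kb, and 66.6% lay over 100 kb away. For the 22 genes called in both, the closest WT and Tle4cKO summits lay at a median of 90.5 bp from each other. They lay within 500 bp for 21 of 22 genes (background 96.4%), the exception being Copg1. Counted as distinct summits, 74 WT summits lay at ends of trafficking genes and 21 of them (28.4%, 18.5 to 40.1%) had a Tle4cKO summit within 500 bp, against a background of 22.6%. The 74 include the summits of Copa, Gosr1 and Use1, so nothing is read from this comparison.

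Most of these summits lay at the start of the gene, just inside it. RefSeq gave an annotated start for 59 of the 72 WT-marked genes. The WT summit lay within 1 kb of a start for 58 of the 59 (background 93.1%), the exception being Trappc10. The median position of the 58 summits was 161 bp into the gene, and 106 bp over all genes. Of the 58, 44 lay downstream of the start (75.9%, background 61.2%) and 28 lay 100 to 300 bp downstream (48.3%, background 34.5%). Gosr1 (224 bp), Copb2 (216 bp), Use1 (182 bp) and Bet1 (158 bp) were in that interval. The WT summits of Sec23b (-300 bp) and Sec22c (-240 bp) lay upstream of the start. In Tle4cKO the summit lay within 1 kb of a start for 18 of 19 genes (background 95.5%), 195 bp into the gene at the median, and 13 of the 18 lay downstream (background 61.2%). None of these differences was tested.

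**Figure D4:**
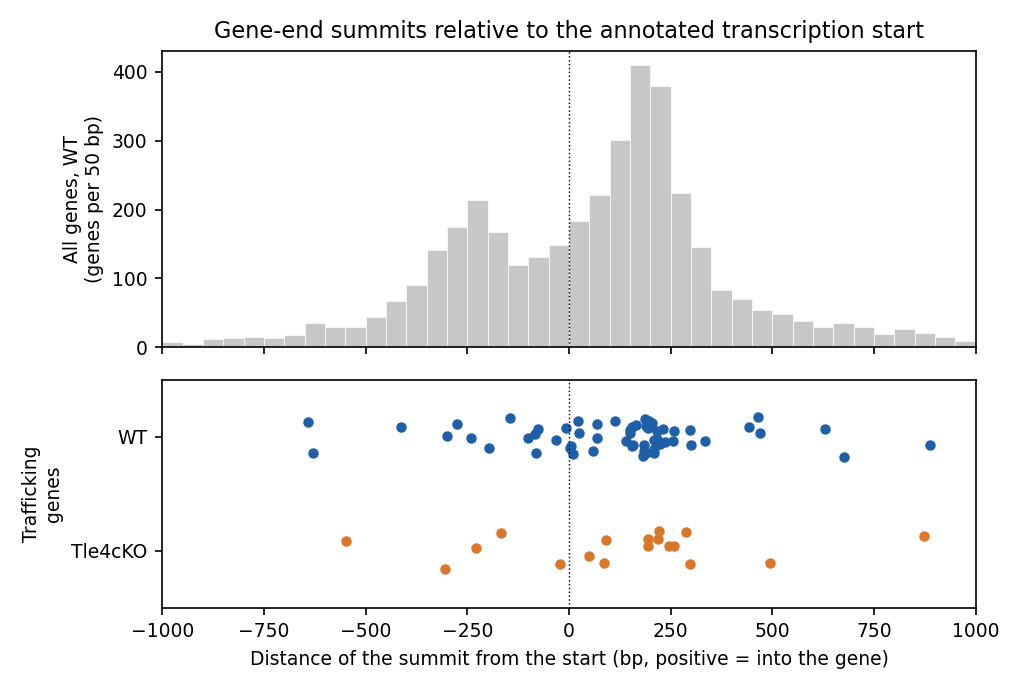
Position of the highest gene-end summit relative to the nearest annotated transcription start (horizontal axis, bp, positive into the gene). The upper panel counts WT summits of all protein-coding genes per 50 bp, and the lower panel shows each trafficking gene in WT (blue, 58 genes) and Tle4cKO (orange, 18 genes), spread vertically for legibility. The WT points gather 100 to 300 bp downstream of the start, where 28 of the 58 lie.

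Most gene-end summits of the trafficking genes belonged to no other gene end. The WT summit lay within 1 kb of an end of another protein-coding gene for 16 of 72 genes (22.2%, background 30.9%). Beside those given above, these were Arf3 (LOC115488470), Vps50 (Hepacam2), Trappc13 (Shld3 and Trim23), Trappc2 (Ofd1) and Trappc6a (Bloc1s3). Stx8 (Cfap52), Vps26b (Ncapd3) and Vps29 (Rad9b) were the others. A shared summit cannot be assigned to one of its genes. The share was 11 of 50 for genes called in WT alone and 5 of 22 for those called in both. In Tle4cKO 6 of 22 genes shared their summit (27.3%, background 34.4%).

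Promoter sequences were searched for exact matches to 9 motifs on both strands. TGACGTGG is the core of the unfolded protein response element (UPRE), which binds XBP1 and ATF6 when unfolded proteins gather in the ER. It shares TGACGT with the cyclic AMP response element TGACGTCA, and its reverse complement holds the CCACG that ends the ER stress response element (ERSE). The others were GTCACGTG (a lysosomal CLEAR-type E-box), CCGGAAG (ETS) and the NRF1, BANP-type, ZNF143-type and YY1-type motifs. RefSeq promoters were matched for 99 of 124 genes (79.8%), under the 80% set for a check over a set, so shares are given only for the 59 of 72 WT-marked genes (81.9%) that have one. TGACGTGG was found in 5 of the 59 promoters (8.47%), in 35 of 4106 promoters of WT-marked genes in all (0.852%) and in 117 of 17492 promoters (0.669%). GTCACGTG was found in 5 of 59 (8.47%) against 4.99% of the promoters of WT-marked genes and 2.86% of all. CCGGAAG was found in 15 of 59 (25.4%) against 23.4% and 11.9%. The ERSE was found in 0 of 59, against 0.219% and 0.160%, and the ZNF143-type motif in 0 of 59, against 0.804% and 0.440%. The BANP-type motif (3 of 59, 5.08%, against 1.73% and 0.726%), TGACGTCA (1, 1.69%, against 4.12% and 2.33%), the NRF1 motif (1, 1.69%, against 2.97% and 1.33%) and the YY1-type motif (1, 1.69%, against 2.07% and 0.972%) were also searched. The median GC content was 59% in the 59 promoters and 60.7% in those of WT-marked genes in all.

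The TGACGTGG matches are printed because they lie in subunits of both coats. Each line gives 30 bases of the RefSeq promoter on GRCm38.p6, 5′ to 3′ on the gene's strand, with the match or its reverse complement in capitals. The match spanned the start itself in Copb2 and lay 28 to 21 bases before it in Copb1. Copb1 and Copb2 were called in both libraries, Arf1, Sec23a and Stx5a in WT alone, and Sec16b and Sec24d in neither. A match describes these letters and is not a binding site.
Arf1, chr11:59228228-59228257, minus strand: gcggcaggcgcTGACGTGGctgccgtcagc
Copb1, chr7:114254690-114254719, minus strand: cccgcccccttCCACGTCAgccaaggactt
Copb2, chr9:98563713-98563742, plus strand: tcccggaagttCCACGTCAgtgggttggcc
Sec16b, chr1:157506741-157506770, plus strand: ttctgtgtggcTGACGTGGcacggcagttt
Sec23a, chr12:59011993-59012022, minus strand: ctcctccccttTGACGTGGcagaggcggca
Sec24d, chr3:123267459-123267488, plus strand: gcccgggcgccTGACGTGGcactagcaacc
Stx5a, chr19:8741422-8741451, plus strand: tggcgcagcagCCACGTCAccgagttagga
Stx5a, chr19:8741444-8741473, plus strand: agttaggagtacgtctaggTGACGTGGcgg

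In the wider window of 10 kb around the gene, 88 of 124 genes (71.0%, background 39.4%) had a WT summit and 31 (25%, background 11.7%) a Tle4cKO summit. Both were found at 30 genes (background 10.9%), of which 29 had a pair within 500 bp, and 35 genes had no summit (background 59.8%). Of the 52 genes with no gene-end summit, 17 had one in this window, 11 in WT alone, 5 in both and 1, Vps37d, in Tle4cKO alone (background 0.836%). Vps25, an ESCRT gene, had scores of 9.02 and 4.32, 12 bp apart and 207 and 195 bp past an annotated start inside the gene. Vps33a, an SM protein of the HOPS complex, had 8.07 and 5.32 inside the gene. Stx3 (8.61), Trappc12 (6.37), Vps39 (4.98), Vps9d1 (3.68) and Stx2 (2.39) had a WT summit inside the gene and no Tle4cKO one, and Sec14l2 had a WT summit of 1.95 outside it. Other genes with no summit in this window were Vps18, Vps28, Vps37b, Vps13a, Vps13c, Vps35l, Sec1, Sec14l3, Sec14l4, Sec14l5, Snap91 and Vamp9. Summits of neighbours also entered this window: the Sec24a value of 18.1 is that of a summit at an end of 0610009B22Rik, and the Snap23 value of 5.36 that of one at ends of Haus2 and Lrrc57. Nearest to the edge of the gene-end window were the WT summits of Vamp8 (888 bp, inside) and Vps25 (1588 bp, outside), and the Tle4cKO summits of Sec62 (872 bp) and Vps25 (1576 bp).

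Other genes of the pathway, listed by known role, were measured in the same way. Of 93 genes, 56 (60.2%) had a WT gene-end summit, and 19 of these (33.9%) also had one in Tle4cKO. Over all protein-coding genes the shares were 22.7% and 24.7%, and these are the background for the groups below as well. Tmed4, a p24 cargo receptor, had a gene-end summit in Tle4cKO alone (3.11), but a WT summit of 3.74 lay within 10 kb of it. Napa, the alpha-SNAP that disassembles SNAREs, had the highest WT score (11.1, and 3.54 in Tle4cKO). Pdcd6, a calcium sensor at ER exit sites, had 10.2 and 3.22. Sar1a, the GTPase that starts the COPII coat, had 9.75 and 6.69, and Mia3, which helps load large cargo, had 4.70 and 4.75. Cog5, a subunit of the COG tether, scored 9.83 in WT alone. Vti1b, a SNARE, had 8.92 and 8.09, and Arfgap1, which turns off Arf1, had 3.03 and 7.55. The COG subunits Cog4 (9.02 and 4.71) and Cog6 (1.95 and 3.76), the golgins Golga1 (5.54 and 2.81) and Golgb1 (3.61 and 5.56), and the Golgi stacking gene Gorasp2 (5.03 and 2.89) were called in both. So were Ergic2 (6.71 and 5.51), Tmed5 (5.70 and 4.53), the SNARE gene Ykt6 (3.49 and 3.62), and Cyth3 (6.29 and 2.93) and Arfgef2 (3.17 and 3.47), which encode exchange factors that switch Arf proteins on. Of 9 regulators of the unfolded protein response and secretion, 5 were marked in WT and 3 in both: Ern1 (8.46 and 5.24), Hspa5 (6.29 and 4.30) and Xbp1 (5.33 and 2.87). The 8 exocyst genes were marked at 2 (25%), near the share over all genes. The 69 Rab GTPase genes were marked at 27 (39.1%), with 11 of the 27 (40.7%) called in both. The WT summits of Cog4 (Sf3b3), Cog5 (Dus4l), Golga1 (Scai), Golgb1 (Eaf2) and Tmed5 (Ccdc18) also lay at an end of the gene in brackets. Whether the Rab genes and the other pathway genes differ from the trafficking genes was not tested.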

How the data were processed

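H3K27ac CUT&Tag was measured in 2 libraries, 1 per genotype. Per the submitters' processing notes, cutadapt 1.14, Bowtie2 2.2.5 and build mm10 were used. How peaks were called, with which settings and control, and at what depth is not given in the sources used here. Deposited by the authors were summits of 1 bp with a score, read here as −log10 of a p- or q-value from the layout and the lowest values, which lie just above 1.30.

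Mitochondrial summits were dropped, the rest kept, with positions counted from 1. Gene bounds, starts and promoters came from RefSeq tables of GRCm38.p6, which give no exons. On the autosomes and X, 108 genes with coordinates under 3 Mb, where the assembled chromosome is a gap, were left out. Summits were assigned within 1 kb of either gene end or 10 kb of the gene, and called shared within 500 bp. Intervals are exact Clopper-Pearson 95% intervals (scipy 1.17.1, pandas 2.3.3, Python 3.11.15). The assignment was tested on simulated data.

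The members and lists were chosen with earlier results of these data known. Genes were named as follows: all with a Tle4cKO gene-end summit, the 20 highest WT scores, the COPI, COPII and early SNARE genes, those at the window's edge, and for the other pathway genes those with a Tle4cKO gene-end summit and the 3 highest WT scores. Further names complete a role, and 1 member is counted but not reported by name here. Alternatives were other windows, sharing distances, a score minimum, a shortened WT list, autosomes, merged summits and annotated starts.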

Additional observations from a re-analysis of the deposited data

How the results depend on the processing

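Of 48 values recomputed under the alternatives, 39 stayed within 1.5 times the main count, or inside its interval for the share, and 9 did not. With scores of at least 5 in both lists, 6 trafficking genes had a Tle4cKO gene-end summit, 6 had both and 12% of WT-marked genes were also called in Tle4cKO, while within 10 kb 9 had a Tle4cKO summit and 8 had both. When only the 2350 highest WT scores were used, 31 genes had a WT gene-end summit and 13 of them (41.9%) had both. Within 10 kb 42 had a WT summit and 19 had both. These alternatives keep fewer summits by construction. Without the shares over all genes under the same settings, the changes cannot be called particular to the trafficking genes. Counting annotated starts beside gene ends, added after the data had been seen, gave 75 genes in WT and 24 in both. No paired analysis was possible because each genotype has 1 library. Read depth is unknown, so a gene without a summit may carry signal under the calling threshold.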

Other observations

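Some trafficking genes held summits away from their ends. Vps45, an SM protein of the trans-Golgi network and endosomes, had a summit inside the gene with a score of 65.8 in WT, rank 25 of 10474, and of 63.4 in Tle4cKO, rank 26 of 2350, at positions 48 bp apart (96044792 and 96044744 of chromosome 3). This was the highest score within 10 kb of any of the 124 genes in both lists. Vps13b, a long lipid transfer gene, had 8 WT summits within 10 kb and 1 in Tle4cKO, the closest pair 46 bp apart. Vps13d had 5 WT summits and none in Tle4cKO. Vps37d, an ESCRT gene, had a Tle4cKO summit of 6.46 (rank 432) within 10 kb and no WT summit there. It lay outside Vps37d, at ends of Bud23 and Dnajc30.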
